A study of Mus musculus with 24 samples.

Results

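DUX was induced in the second of the wild-type pLV2 embryonic stem cell lines of the study, and genes and repeat subfamilies were compared between the induced and the uninduced libraries. The members were the libraries whose titles name WT pLV2 with the number 2, either with DOX (2 libraries) or without it (2 libraries), which makes 4 of the 24 libraries of the series. All of them came from KH2 cells, a mouse embryonic stem cell line built for doxycycline-inducible transgenes, and all carried TRE_DUX, in which a promoter that answers to doxycycline drives DUX. The uninduced libraries therefore carried the transgene as well. Doxycycline (DOX) was given for 16 h or not at all, the genotype was WT, and cells were kept in serum with LIF on gelatin or on growth-arrested mouse embryo fibroblasts. The labels do not say what pLV2 stands for, whether the line was 1 clone, which surface was used for these libraries, or whether the replicates were separate cultures, so the p-values measure only the spread between these samples, which may be technical. The number 2 was read as a line number. The treatment tag of both DOX libraries reads None, against their titles. The titles were followed. The fit shared its estimate of the spread over 16 pLV2 libraries, of which 8 were of the lines TRIM24KO_pLV2_1 and TRIM33KO_pLV2_1.

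DUX is a double homeobox transcription factor that is switched on briefly when the mouse embryo first transcribes its own genome, at the 2-cell stage. It binds the long terminal repeats of the endogenous retrovirus MERVL, named MT2_Mm, and promoters of genes such as the Zscan4 cluster, and its expression in embryonic stem cells moves them towards a state that resembles the 2-cell embryo. Many of its targets are recent, tandemly copied gene families, whose copies share reads, so the split of counts between copies is uncertain. Nor can a read of Dux be traced to the transgene or to a native copy.

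The Dux count followed the titles. Dux (named Duxf3 in GENCODE M21, chr10:58229979-58232675, GRCm38) had 0 and 0 counts without DOX and 58 and 53 with DOX. Both DOX libraries lay above both uninduced libraries, as they did in 24.9% of all tested genes (35.6% lay entirely below), and the level was at least 25.5-fold higher against a floor of 3 counts per library (edgeR adjusted p = 8.10e-08). The 4 libraries held 12703385 to 17763800 gene counts, and the uninduced pair was the deeper. Replicates of each group differed by more than counting noise (chi-square per degree of freedom 9.01 without DOX and 8.99 with DOX).

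The promoters of the endogenous Dux gene and of 3 strongly rising copied genes are shown because they hold a motif that resembles the recognition sequence of DUX, for which they were picked. Each window runs from 250 bases before to 50 bases after the annotated start, from RefSeq on GRCm38.p6, 5′ to 3′, with the matches to GATTNAATC in capitals. The windows are Dux (chr10:58233040-58233339, minus strand), Gm4340 (chr10:104193792-104194091, plus strand), Gm13043 (chr4:143511093-143511392, plus strand) and Gm21761 (chr13:119913419-119913718, minus strand). The windows of Zscan4c (chr7:11005495-11005794, plus strand) and Zscan4d (chr7:11166099-11166398, minus strand) are shown as strongly rising genes without a match.
Dux: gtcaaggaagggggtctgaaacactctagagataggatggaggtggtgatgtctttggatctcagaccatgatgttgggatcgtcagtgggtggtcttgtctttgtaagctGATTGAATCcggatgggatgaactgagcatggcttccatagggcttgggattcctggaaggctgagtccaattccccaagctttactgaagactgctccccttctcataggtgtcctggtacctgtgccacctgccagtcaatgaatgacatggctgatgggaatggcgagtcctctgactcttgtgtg
Gm4340: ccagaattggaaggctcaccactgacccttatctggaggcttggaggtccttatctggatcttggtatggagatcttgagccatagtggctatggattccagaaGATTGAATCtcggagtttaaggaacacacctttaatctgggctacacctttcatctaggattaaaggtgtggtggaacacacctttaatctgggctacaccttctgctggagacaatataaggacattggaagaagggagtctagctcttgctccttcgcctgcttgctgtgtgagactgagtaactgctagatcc
Gm13043: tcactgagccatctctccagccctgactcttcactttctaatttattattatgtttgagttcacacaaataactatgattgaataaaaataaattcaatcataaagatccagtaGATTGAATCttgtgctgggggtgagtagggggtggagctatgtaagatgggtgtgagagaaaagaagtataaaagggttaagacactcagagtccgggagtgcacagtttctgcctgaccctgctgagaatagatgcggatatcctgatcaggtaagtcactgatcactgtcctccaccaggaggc
Gm21761: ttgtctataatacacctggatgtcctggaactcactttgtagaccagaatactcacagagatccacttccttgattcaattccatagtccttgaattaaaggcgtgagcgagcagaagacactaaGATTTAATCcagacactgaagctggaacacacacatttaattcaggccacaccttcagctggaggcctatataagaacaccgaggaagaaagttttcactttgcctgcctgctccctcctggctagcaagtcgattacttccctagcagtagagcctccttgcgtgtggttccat
Zscan4c: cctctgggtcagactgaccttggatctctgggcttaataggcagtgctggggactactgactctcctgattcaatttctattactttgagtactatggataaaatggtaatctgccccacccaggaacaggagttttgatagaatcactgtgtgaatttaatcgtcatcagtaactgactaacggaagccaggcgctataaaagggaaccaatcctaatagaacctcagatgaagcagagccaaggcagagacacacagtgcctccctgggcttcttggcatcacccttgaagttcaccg
Zscan4d: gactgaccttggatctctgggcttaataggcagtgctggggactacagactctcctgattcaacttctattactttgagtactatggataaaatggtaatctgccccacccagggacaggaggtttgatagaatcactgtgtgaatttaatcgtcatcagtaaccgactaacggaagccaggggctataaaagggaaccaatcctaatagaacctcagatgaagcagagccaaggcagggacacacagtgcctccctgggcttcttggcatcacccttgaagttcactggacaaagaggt

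The match began 139 bases before the start in Dux, 146 in Gm4340, 136 in Gm13043 and 125 in Gm21761. Gm4340 had 0 and 0 counts without DOX and 8017 and 6384 with DOX (at least 3306-fold higher), Gm13043 had 0 and 0 counts without DOX and 1926 and 1768 with DOX (at least 847-fold higher), and Gm21761 had 4 and 0 counts without DOX and 6554 and 5563 with DOX (log2 fold change 11.94 ± 0.34 (SE)). These genes were named for their motif after their values were seen. Both strands were searched, and the motif reads the same on both. GATTNAATC was found in the windows of 15 of 576 genes that rose by a log2 fold change of at least 1 and have a window (2.60%), and in 16 of 1133 of all genes that rose (1.41%). It was found in 10 of 8593 genes not called (0.116%), in 6 of 1892 genes that fell (0.317%), in 0 of 143 that fell by a log2 of at least 1 and in 83 of 27025 genes in the whole promoter table (0.307%). Several of the 15 are copies of one another, such as Gm4340 and Gm21293, so they are not independent. A longer form of the motif, with a fixed base added at either end, was found in 11 of 27025 genes (0.0407%) and in 0 of 1133 genes that rose. The windows of Zscan4c and Zscan4d held neither form and were 90.4% identical (281 equal bases of 311 aligned positions).

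DOX changed 4788 of 18079 tested genes in line 2 (26.5%), 2289 upward (12.7%) and 2499 downward (13.8%), at an edgeR adjusted p under 0.05. Among the genes that rose, 808 had a log2 fold change of less than 1. Of the genes that fell, 2264 changed by less than 1 and 32 by 2 or more. A log2 fold change of at least 1 was reached by 1716 genes (9.49%), of which 1481 were rising (8.19%) and 235 falling (1.30%). No uninduced count at all was recorded for 555 of the rising genes. For such genes a fitted fold change is no bound, so a fold of at least a given size against the floor of 3 counts per library is given instead, and for genes with 1 to 3 uninduced counts the ratio of the pooled libraries with its counting interval.

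Genes that rose took 22.4% and 23.6% of the gene counts without DOX and 34.2% and 32.7% with DOX, and those past a log2 of 1 took 0.970% and 0.836% without and 6.88% and 5.82% with DOX. The genes that fell went from 17.4% and 17.1% to 11.8% and 12.5%. With RLE factors in place of TMM, 2598 genes rose and 1753 fell, so 59.7% of the calls were rises against 47.8%. All 2289 rises and 1753 of the 2499 falls were kept there. With library sizes alone the median of all genes moved from -0.07 to -0.22, and with only the 4 libraries of line 2 in the fit 1987 genes rose and 753 fell. The falls, 2499 in number, were 1208 without DOX replicate 1 (2893 calls in all), 1405 without uninduced replicate 2, 1594 without uninduced replicate 1 and 1247 with DESeq2, each time fewer than the rises.

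**Figure D1:**
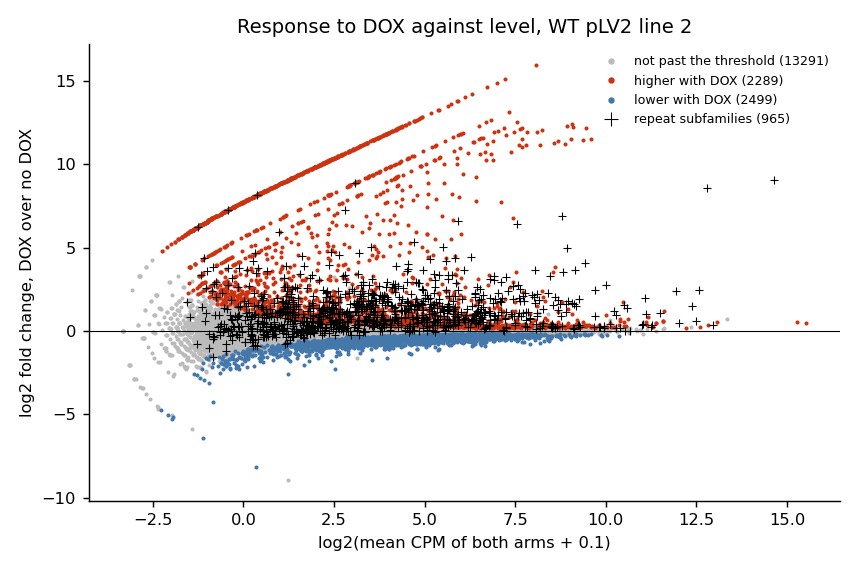
Log2 fold change with DOX in line 2 (vertical) against log2 of the mean CPM of both arms plus 0.1 (horizontal), with 1 point per tested gene (red higher, blue lower, grey not called) and a cross per repeat subfamily. The bands at the top are genes with 0 or few uninduced counts, whose fitted values are no bound, and 2264 of the 2499 falls lie between 0 and -1.

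Every tested member of the Dux, Zscan4, Tcstv, Tdpoz, Usp17l and Eif1a-like families rose. These are multicopy genes transcribed in the 2-cell embryo. A gene with few uninduced counts passes the filter mainly through libraries where it is high, so such counts of rises carry little information. Of 577 tested genes without an uninduced count 555 rose (96.2%), against 12.7% of all tested genes. The same limit holds for many genes of the Pramef, Obox and single-copy lists below. In the Zscan4 family, which encodes zinc-finger proteins that act on telomeres, 6 of 6 genes rose with log2 fold changes from 11.48 to 12.42. Zscan4c had 0.291 and 0.0613 CPM without DOX and 1269 and 893 with DOX (log2 fold change 12.42 ± 0.37 (SE), edgeR adjusted p = 2.19e-13). Zscan4d had 0.291 and 0.306 CPM without DOX and 1711 and 1107 with DOX (log2 fold change 12.17 ± 0.40 (SE), edgeR adjusted p = 6.29e-13). In both genes DOX replicate 1 was above DOX replicate 2, and both were far above the uninduced pair. CPM is the count scaled by the normalized gene library size, for genes and for repeats alike.

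The Duxbl genes are homologs of Dux that arose by duplication. Duxbl1 had 5 and 13 counts without DOX and 116 and 141 with DOX (log2 fold change 4.28 ± 0.36 (SE), edgeR adjusted p = 9.14e-08). Duxbl3 had 0 and 0 counts without DOX and 20 and 4 with DOX, at least 5.55-fold higher (edgeR adjusted p = 0.0248), and the lower DOX library was near the floor. Duxbl2 was below the filter on low counts, with 4 counts in 1 DOX library. The edgeR adjusted p of Duxbl3 was 0.105 without uninduced replicate 1, 0.0802 without uninduced replicate 2 and 0.243 without DOX replicate 1, so the call rested on each of them.

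Tcstv and Tdpoz genes rose in 7 of 7 cases. Tcstv3 had 0 and 1 counts without DOX and 2601 and 2190 with DOX, a ratio of 6679.9-fold (95% counting interval 1198 to 263897) over the pooled libraries (edgeR adjusted p = 5.97e-13). Tdpoz4, a member of a BTB and TRAF domain family, had 0 and 0 counts without DOX and 660 and 951 with DOX, at least 369-fold higher (edgeR adjusted p = 4.86e-11). All 5 Usp17l genes, which encode deubiquitinases, rose. Usp17le had 4 and 5 counts without DOX and 8812 and 6638 with DOX (log2 fold change 11.18 ± 0.33 (SE)) and Usp17ld had 0 and 0 counts without DOX and 1133 and 1045 with DOX, at least 499.5-fold higher. All 7 Eif1a-like genes, copies related to a translation initiation factor, rose, and Gm5662 had the highest counts of them, with 9 and 5 counts without DOX and 13627 and 11021 with DOX (log2 fold change 11.23 ± 0.34 (SE)). In no gene of these families did an uninduced library reach the level of a DOX library (24.9% of all tested genes lay entirely higher with DOX).

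Of the Pramef and Pramel genes, leucine-rich repeat proteins of the germline and early embryo, 8 of 12 were tested and 6 rose (75.0%). Over all tested genes 12.7% rose. Pramef25 had 2 and 1 counts without DOX and 4234 and 3840 with DOX, a ratio of 3752-fold (95% counting interval 1284 to 18199.7) (edgeR adjusted p = 2.19e-13), and Pramef6 had 0 and 0 counts without DOX and 452 and 385 with DOX, at least 192-fold higher. Pramef8 was already transcribed without DOX, with 17.01 and 16.1 CPM without DOX and 32.2 and 29.8 with DOX (log2 fold change 0.90 ± 0.10 (SE)). Pramef12 had 22.9 and 27.3 CPM without DOX and 22.8 and 20.4 with DOX and did not pass (edgeR adjusted p = 0.161). Of the Obox homeobox genes, 3 of 5 were tested and all 3 rose. Obox3 had 0 and 0 counts without DOX and 35 and 32 with DOX, at least 15.4-fold higher (edgeR adjusted p = 1.48e-04), and Obox6 had 12 and 23 counts without DOX and 34 and 37 with DOX (log2 fold change 1.47 ± 0.42 (SE)). Obox6 did not pass without uninduced replicate 1 (edgeR adjusted p = 0.163), DOX replicate 1 (edgeR adjusted p = 0.0573) or DOX replicate 2 (edgeR adjusted p = 0.0635).

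Genes of the 2-cell embryo listed as single-copy rose in 6 of 6 cases. One of them, Sp110, lies in a window of chromosome 1 where 16 of 18 tested genes rose. Whether it shares reads with its neighbours was not tested. Zfp352, a zinc-finger gene, had 3 and 1 counts without DOX and 2254 and 2616 with DOX (log2 fold change 10.62 ± 0.36 (SE), edgeR adjusted p = 2.14e-12). Tmem92, a membrane protein gene, had 0 and 3 counts without DOX and 5973 and 5018 with DOX, a ratio of 5108-fold (95% counting interval 1747 to 24774) (edgeR adjusted p = 1.45e-13). Sp110, a nuclear body protein gene, had 4 and 1 counts without DOX and 8395 and 7523 with DOX (log2 fold change 12.03 ± 0.41 (SE)). Spz1, a transcription factor gene of the testis, and Ubtfl1, a gene needed before implantation, had 0 uninduced counts, and were at least 244-fold and 348-fold higher. Both DOX libraries lay above both uninduced libraries in each of these genes, against 24.9% of all tested genes.

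**Figure D2:**
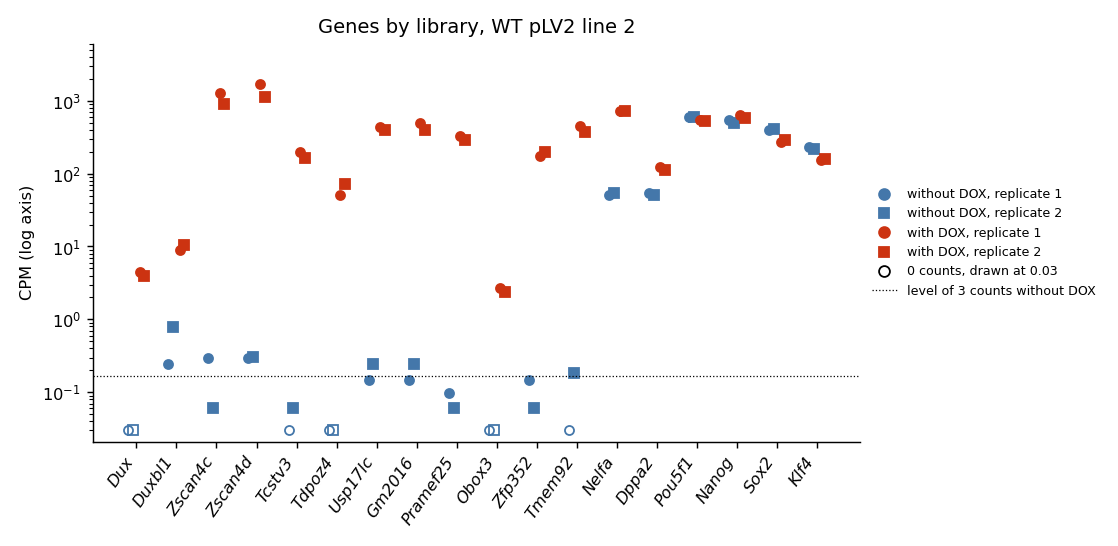
Level of 18 genes of the 2-cell embryo, of Dux activation and of pluripotency in each of the 4 libraries of line 2, in CPM on a log axis, with circles for replicate 1, squares for replicate 2, blue without and red with DOX, open symbols at 0.03 for 0 counts and a dotted line at the level of 3 uninduced counts. In the genes from Dux to Tmem92 the colours lie far apart, as in Zscan4c at 0.291 and 0.0613 CPM without DOX against 1269 and 893 CPM with DOX, while the pluripotency genes lie close together.

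Of 4 factors tied to the activation of the endogenous Dux gene, 3 rose. Nelfa, a subunit of the negative elongation factor, had 50.7 and 53.8 CPM without DOX and 731 and 729 with DOX (log2 fold change 3.81 ± 0.15 (SE), edgeR adjusted p = 2.91e-12). Dppa2, a chromatin factor that binds the Dux promoter, had 54.5 and 51.5 CPM without DOX and 123 and 112 with DOX (log2 fold change 1.15 ± 0.08 (SE), edgeR adjusted p = 9.57e-09). Dppa3, a maternal factor that also marks naive cells, had 11.3 and 21.6 CPM without DOX and 26.0 and 32.0 with DOX (log2 fold change 0.84 ± 0.22 (SE), edgeR adjusted p = 0.00947). Dppa4, the partner of Dppa2, had 68.5 and 61.6 CPM without DOX and 65.3 and 67.1 with DOX and did not pass (log2 fold change 0.02 ± 0.07 (SE)). Dppa3 did not pass without uninduced replicate 1 (edgeR adjusted p = 0.0995), without DOX replicate 2 (edgeR adjusted p = 0.0800) or with only the 4 libraries in the fit (edgeR adjusted p = 0.0584). The list median was 0.99 against -0.07 over all tested genes.

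The rising gene with the smallest p-value was Tie1, an endothelial receptor tyrosine kinase gene (chr4:118471191-118490061, GRCm38), with 1 and 1 counts without DOX and 1012 and 1027 with DOX, a ratio of 1421-fold (95% counting interval 393 to 11745) (edgeR adjusted p = 1.26e-13). P4ha2, a prolyl hydroxylase of collagen synthesis, was well transcribed without DOX and still rose, with 26.0 and 32.0 CPM without DOX and 351 and 324 with DOX (log2 fold change 3.55 ± 0.10 (SE), edgeR adjusted p = 1.97e-13). The others of the 8 smallest p-values were Tmem92, the pseudogene Gm11543, Zscan4-ps2, B020031M17Rik, Gm21818 and Gm4858. Gm21818 had 0 and 0 counts without DOX and 2154 and 2071 with DOX, at least 969-fold higher, and B020031M17Rik, which lies less than 1 Mb from it on chromosome 13, had 2 and 1 counts without DOX and 3181 and 3098 with DOX, a ratio of 2918-fold (95% counting interval 998 to 14154). Uninduced libraries held at most 7 counts of any of these genes except P4ha2.

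Among genes with a mean of at least 50 counts, the largest gains in CPM came from abundant non-coding RNAs and mitochondrial transcripts, whose level depends on rRNA depletion and RNA selection. Rn7sk, the 7SK RNA that holds the elongation factor P-TEFb, had 6882 and 7005 CPM without DOX and 10778 and 9615 with DOX (log2 fold change 0.55 ± 0.07 (SE)). Rn7s1, the RNA of the signal recognition particle, had 2319 and 1452 CPM without DOX and 5209 and 3565 with DOX (log2 fold change 1.22 ± 0.37 (SE)), with a larger spread between replicates, and it did not pass without uninduced replicate 2 (edgeR adjusted p = 0.158) or DOX replicate 1 (edgeR adjusted p = 0.160). The mitochondrial rRNAs mt-Rnr1 and mt-Rnr2 had log2 fold changes of 0.54 ± 0.16 (SE) and 0.50 ± 0.17 (SE). Neither passed without uninduced replicate 1 (edgeR adjusted p = 0.125 and 0.190) or DOX replicate 1 (edgeR adjusted p = 0.0915 and 0.125), and mt-Rnr2 also did not without DOX replicate 2 (edgeR adjusted p = 0.0996). With library sizes alone neither these nor Rn7sk passed. Among the 13 protein genes encoded in mitochondria, 7 rose and 1 fell, with a list median of 0.32, but with library sizes alone 1 rose and 2 fell, and without DOX replicate 1 4 rose and 2 fell. In the main fit the 7 rises and 1 fall were 53.8% and 7.7% of the list, against 12.7% and 13.8% of all tested genes. mt-Cytb, a subunit of respiratory complex III, had 1800.0 and 1569 CPM without DOX and 3271 and 2613 with DOX (log2 fold change 0.80 ± 0.13 (SE)). The counts of mt-Co2 were uneven between replicates, with 15604 and 8105 counts without DOX and 19059 and 0 with DOX. The 1 fall was mt-Nd3, with 62 and 28 counts without DOX and 0 and 0 with DOX. It did not pass with DESeq2 (DESeq2 adjusted p = 0.468). All mitochondrial genes took 9.45% and 10.8% of gene counts without DOX and 13.2% and 12.9% with DOX.

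Most repeat subfamilies rose and almost none fell. Of 965 tested subfamilies 695 changed (72%), of which 693 rose (71.8%) and 2 fell (0.207%), and 452 rose by a log2 fold change of at least 1 (46.8%). Over all tested subfamilies the median log2 fold change was 0.95. Repeats took 8.09% and 7.71% of all counts without DOX and 19.3% and 17.3% with DOX. How the authors assigned reads that match several places is not given in the sources used here, and a subfamily count can include reads of repeats inside other transcripts.

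The largest change was that of MERVL. MERVL-int, its internal coding part, had 102 and 91.3 CPM without DOX and 57014 and 44909 with DOX (log2 fold change 9.04 ± 0.22 (SE), edgeR adjusted p = 1.05e-14). MT2_Mm, the long terminal repeat that serves as its promoter, had 40.3 and 32.9 CPM without DOX and 15658 and 12664 with DOX (log2 fold change 8.59 ± 0.22 (SE), edgeR adjusted p = 1.18e-14). Together they made 0.0152% and 0.0131% of all counts without DOX and 6.04% and 5.03% with DOX, so DOX replicate 1 was again the higher. Older relatives had smaller changes. MERVL_2A-int had 80.4 and 70.7 CPM without DOX and 1445 and 1148 with DOX (log2 fold change 4.10 ± 0.14 (SE)) and MT2B1 had 83.9 and 81.9 CPM without DOX and 1152 and 947 with DOX (log2 fold change 3.66 ± 0.14 (SE)). In the ERVL family as a whole 63 of 95 subfamilies rose (66.3%, against 71.8% of all tested subfamilies) with a median of 1.08.

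Most subfamilies of the other retroviral families rose as well, none by as much as MERVL-int. In ERVK, which holds the IAP elements, 233 of 271 subfamilies rose (86.0%, median log2 fold change 1.33). IAPEz-int, the internal part of an active IAP class, had 212 and 231 CPM without DOX and 818 and 729 with DOX (log2 fold change 1.80 ± 0.13 (SE), edgeR adjusted p = 1.15e-09). In ERV1 73 of 103 rose (70.9%, against 71.8% of all tested subfamilies, median 0.99), among them RLTR6B_Mm with 7.32 and 7.35 CPM without DOX and 1041 and 718 with DOX (log2 fold change 6.90 ± 0.26 (SE)) and MuRRS-int with 7.61 and 6.13 CPM without DOX and 166 and 132 with DOX (log2 fold change 4.43 ± 0.15 (SE)). In ERVL-MaLR 73 of 91 rose (80.2%, median 1.08), led by ORR1A1-int with 40.7 and 37.5 CPM without DOX and 547 and 428 with DOX (log2 fold change 3.64 ± 0.14 (SE)). Both DOX libraries were above both uninduced libraries in each of these named subfamilies, as in 81.3% of all tested subfamilies (3.32% lay entirely below).

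Most LINE and SINE subfamilies rose, and 3 of 5 tested satellites did. The shares were 76.7% of LINE, 85.7% of SINE and 60.0% of satellite subfamilies, against 71.8% of all tested subfamilies. In L1, the autonomous LINE retrotransposons, 103 of 127 rose (81.1%, median 0.99). L1Md_T, a young active subfamily, had 955 and 746 CPM without DOX and 2462 and 1958 with DOX (log2 fold change 1.38 ± 0.40 (SE), edgeR adjusted p = 0.00565), with a wide spread within each pair. All 5 B2 subfamilies, short elements transcribed by RNA polymerase III, rose. B2_Mm1a had 1770.2 and 1934 CPM without DOX and 11718 and 8949 with DOX (log2 fold change 2.48 ± 0.17 (SE)). In the B1 family, listed as Alu, 13 of 16 rose (81.2%) with a median of 0.22. B1_Mm had 745 and 687 CPM without DOX and 1862 and 1463 with DOX (log2 fold change 1.22 ± 0.11 (SE)). GSAT_MM, the major satellite of pericentromeres, had 4.46 and 4.35 CPM without DOX and 448 and 296 with DOX (log2 fold change 6.39 ± 0.26 (SE), edgeR adjusted p = 3.05e-12), the largest rise among the 5 tested satellites. All satellites together took 0.203% and 0.187% of all counts without DOX and 0.209% and 0.191% with DOX. X7C_LINE, an old CR1 element, had 1.36 and 1.16 CPM without DOX and 56.4 and 44.6 with DOX (log2 fold change 5.30 ± 0.20 (SE)).

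DNA transposons, which are ancient in the mouse, had a median log2 fold change of 0.34. Of 171 tested DNA subfamilies 82 rose (48.0%), 39 of them by a log2 fold change of at least 1, and 2 fell. Of the 68 hAT-Charlie subfamilies 29 rose (42.6%). These shares were below those of all tested subfamilies, of which 71.8% rose and 46.8% rose by a log2 of at least 1. The only 2 falls of all repeats were Charlie22a with 63 and 41 counts without DOX and 22 and 22 with DOX (log2 fold change -0.75 ± 0.29 (SE), edgeR adjusted p = 0.0288) and Charlie10b with 22 and 11 counts without DOX and 2 and 8 with DOX (log2 fold change -1.21 ± 0.51 (SE), edgeR adjusted p = 0.0409). They are named after their values were seen, rest on few counts, and neither passed with DESeq2 (DESeq2 adjusted p = 0.125 and 0.184), with only the 4 libraries in the fit (edgeR adjusted p = 0.0522 and 0.122), without uninduced replicate 1 (edgeR adjusted p = 0.175 and 0.287) or without DOX replicate 1 (edgeR adjusted p = 0.0864 and 0.376).

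**Figure D3:**
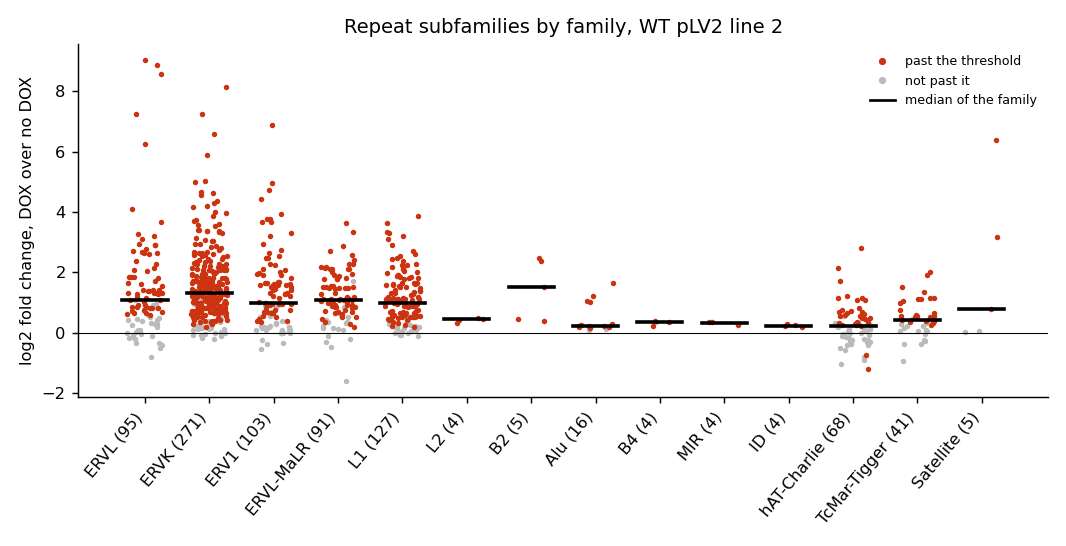
Log2 fold change with DOX in line 2 (vertical) of each tested repeat subfamily of 14 families (horizontal, number tested in brackets), red where past the threshold and grey where not, with a bar at the family median. The highest ERVL points are MERVL-int at 9.04, MLT2E, which had 1 and 0 uninduced counts, and MT2_Mm at 8.59, while the ERVL median is 1.08 and the ERVK median 1.33.

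The embryonic stem cell label was checked on the core pluripotency genes, and all 9 lay between 160.0 CPM (Utf1) and 638 CPM (Nanog) in every library. Pou5f1, which encodes OCT4, had 589.8 and 595 CPM without DOX and 540.2 and 521 with DOX and did not pass (log2 fold change -0.16 ± 0.07 (SE), edgeR adjusted p = 0.112). Zfp42, also called Rex1, had 375 and 260.4 CPM without DOX and 289.6 and 242 with DOX and did not pass either (edgeR adjusted p = 0.131). It did pass with a block on the replicate number (log2 fold change -0.24, edgeR adjusted p = 0.00854) and without the filter on low counts (edgeR adjusted p = 0.0123). Without uninduced replicate 2 Zfp42 was lower (log2 fold change -0.46, edgeR adjusted p = 0.00229), and without uninduced replicate 1 the value was 0.06. Of the 9 core genes 1 rose (11.1%, near the 12.7% of all tested genes) and 3 fell (33.3%, against 13.8%), with a median of -0.21. With library sizes alone 0 rose and 1 fell, with repeats in the library size 0 rose and 4 fell, and with the block 1 rose and 5 fell. Sox2, the partner of OCT4, had 399 and 411 CPM without DOX and 269 and 292 with DOX (log2 fold change -0.53 ± 0.07 (SE), edgeR adjusted p = 1.34e-05), and Nanog had 545 and 489.5 CPM without DOX and 638 and 582 with DOX (log2 fold change 0.24 ± 0.08 (SE), edgeR adjusted p = 0.0306). Nanog did not pass with library sizes alone (edgeR adjusted p = 0.823), with repeats in the library size (edgeR adjusted p = 0.0785), without uninduced replicate 2 (edgeR adjusted p = 0.152) or without DOX replicate 1 (edgeR adjusted p = 0.2498). Pou5f1 did pass with repeats in the library size (edgeR adjusted p = 0.0344). In bulk samples fewer cells of a type and less RNA per cell cannot be told apart.

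Naive pluripotency genes fell by small amounts. Of 13 tested, 9 fell and 1 rose (69.2% and 7.7%, against 13.8% and 12.7% of all tested genes, median -0.28), and with only the 4 libraries in the fit 6 fell. Without uninduced replicate 1, 4 fell, and without DOX replicate 1, 5 fell. Klf4, a reprogramming factor, had 231 and 214 CPM without DOX and 153 and 160.3 with DOX (log2 fold change -0.51 ± 0.08 (SE), edgeR adjusted p = 1.40e-04). Fgf4, the growth factor that primes cells to differentiate, had 145 and 167 CPM without DOX and 99.0 and 118 with DOX (log2 fold change -0.52 ± 0.08 (SE), edgeR adjusted p = 1.82e-04). Esrrb, an orphan nuclear receptor whose call was lost with library sizes alone (edgeR adjusted p = 0.134), had 529.8 and 518 CPM without DOX and 421 and 409 with DOX (log2 fold change -0.34 ± 0.06 (SE), edgeR adjusted p = 5.43e-04). Of the genes of primed pluripotency, the state after implantation, 4 of 7 tested fell and 1 rose, with 2 falls without uninduced replicate 2, without DOX replicate 1, with DESeq2 or with only the 4 libraries in the fit. Lef1, a Wnt effector, had 7.56 and 11.3 CPM without DOX and 1.604 and 2.24 with DOX (log2 fold change -2.27 ± 0.29 (SE), edgeR adjusted p = 1.36e-05), Otx2 had 18.3 and 21.6 CPM without DOX and 7.79 and 11.3 with DOX (log2 fold change -1.06 ± 0.16 (SE), edgeR adjusted p = 9.37e-05), and Fgf5 had 0 counts in all 4 libraries. The exception was Sox3 with 1.55 and 2.45 CPM without DOX and 6.87 and 8.35 with DOX (log2 fold change 1.95 ± 0.22 (SE), edgeR adjusted p = 4.42e-06).

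DNA methylation enzymes fell in 5 of 8 cases (62.5%, median -0.28, where 12.7% of all tested genes rose and 13.8% fell), against 1 without uninduced replicate 2 and 2 without DOX replicate 1. Tet2, which oxidizes methylcytosine, had 394 and 326 CPM without DOX and 222 and 216 with DOX (log2 fold change -0.72 ± 0.10 (SE), edgeR adjusted p = 7.03e-05). Tet1 had 1034 and 1061 CPM without DOX and 804 and 910.3 with DOX (log2 fold change -0.29 ± 0.07 (SE), edgeR adjusted p = 0.00779) and Dnmt3l, the cofactor of the de novo methyltransferases, had 131 and 139 CPM without DOX and 102 and 103 with DOX (log2 fold change -0.40 ± 0.09 (SE), edgeR adjusted p = 0.00304). Without uninduced replicate 2, Tet1 (edgeR adjusted p = 0.0803) and Dnmt3l (edgeR adjusted p = 0.0528) did not pass, nor did Tet1 without DOX replicate 1 (edgeR adjusted p = 0.116) or with only the 4 libraries in the fit (edgeR adjusted p = 0.128). With library sizes alone Tet1 (edgeR adjusted p = 0.184) and Dnmt3l (edgeR adjusted p = 0.0870) did not pass. Of 26 chromatin repressors of the 2-cell state 3 rose and 7 fell (11.5% and 26.9%, median -0.13), with 0 and 1 under library sizes alone and 1 rise without uninduced replicate 2 or without DOX replicate 1. Mga, a subunit of the PRC1.6 complex, had 408 and 419.5 CPM without DOX and 267 and 279.7 with DOX (log2 fold change -0.60 ± 0.07 (SE), edgeR adjusted p = 2.56e-06). Its partner Max had 69.3 and 67.9 CPM without DOX and 51.2 and 52.1 with DOX (log2 fold change -0.41 ± 0.07 (SE), edgeR adjusted p = 3.22e-04). Trim28, the co-repressor KAP1, had 1331 and 1342 CPM without DOX and 1689.5 and 1640.4 with DOX (log2 fold change 0.32 ± 0.06 (SE), edgeR adjusted p = 8.76e-04), its relative Trim33 had 115 and 118 CPM without DOX and 85.2 and 98.9 with DOX (log2 fold change -0.34 ± 0.07 (SE), edgeR adjusted p = 0.00117), and Trim24 had 196 and 165 CPM without DOX and 199 and 174 with DOX and did not pass (edgeR adjusted p = 0.768). The call of Trim33 was lost with only the 4 libraries in the fit (edgeR adjusted p = 0.0849) and with library sizes alone (edgeR adjusted p = 0.121), and with library sizes alone those of Max (edgeR adjusted p = 0.0673) and Trim28 (edgeR adjusted p = 0.648) were lost too.

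The falling gene with the smallest p-value was Plekha2, a phosphoinositide-binding adaptor, with 60.5 and 54.6 CPM without DOX and 25.6 and 25.4 with DOX (log2 fold change -1.18 ± 0.09 (SE), edgeR adjusted p = 3.37e-08). Elf3, an epithelial ETS factor, had 62.5 and 69.4 CPM without DOX and 34.6 and 37.1 with DOX (log2 fold change -0.88 ± 0.07 (SE), edgeR adjusted p = 8.50e-08). Kdm7a, a histone demethylase, had 43.6 and 42.7 CPM without DOX and 22.2 and 22.1 with DOX (log2 fold change -0.96 ± 0.09 (SE), edgeR adjusted p = 5.92e-07). The other genes of the 8 smallest p-values were G2e3, Kat2b, Vegfa, Lrp1 and Raph1, with log2 fold changes from -0.99 to -0.58. The rule for named genes asked for no overlap between the groups, and the DOX levels of the 8 were 0.443 (Plekha2) to 0.667 (Raph1) times the uninduced level.

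Genes of glycolysis and hypoxia held a run of falls. Of 26 tested gene IDs (25 symbols) 13 fell and 1 rose (50% and 3.8%, against 13.8% and 12.7% of all tested genes), with a median of -0.33, and with only the 4 libraries in the fit 7 fell. The median was -0.09 without uninduced replicate 2 and -0.19 without DOX replicate 1. Ndrg1, a hypoxia-induced gene, had 29.1 and 41.6 CPM without DOX and 10.4 and 16.4 with DOX (log2 fold change -1.39 ± 0.17 (SE), edgeR adjusted p = 9.18e-06). Egln3, an oxygen-sensing prolyl hydroxylase, had 28.7 and 39.2 CPM without DOX and 10.9 and 15.7 with DOX (log2 fold change -1.35 ± 0.17 (SE), edgeR adjusted p = 1.58e-05). Vegfa, the angiogenic growth factor, had 51.6 and 52.0 CPM without DOX and 23.6 and 28.5 with DOX (log2 fold change -0.99 ± 0.09 (SE), edgeR adjusted p = 3.35e-07). Gapdh and Pkm, which encode core glycolytic enzymes, had log2 fold changes of 0.06 and 0.05 and did not pass. The one gene that rose was P4ha2, given above.

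Signalling genes fell in part. Over all tested genes 12.7% rose and 13.8% fell, which are the shares to read these lists against. The falls were 47.1% of the LIF, FGF and Wnt list, 40.9% of the TGF-beta, Nodal and BMP list and 9.1% of the retinoic acid list. Of 17 tested genes of the LIF, FGF and Wnt response 8 fell and 2 rose (median -0.36), with 5 falls and no rise under library sizes alone and 5 falls and 1 rise without uninduced replicate 1. Il6st, the shared receptor subunit gp130, had 94.7 and 115 CPM without DOX and 55.9 and 67.3 with DOX (log2 fold change -0.77 ± 0.10 (SE), edgeR adjusted p = 2.46e-05), and Lifr, the LIF receptor, had 187 and 175 CPM without DOX and 124 and 130.1 with DOX (log2 fold change -0.51 ± 0.08 (SE), edgeR adjusted p = 7.32e-05). Their target Socs3 had 147 and 145 CPM without DOX and 99.1 and 106 with DOX (log2 fold change -0.51 ± 0.07 (SE), edgeR adjusted p = 2.93e-05). Axin2, a Wnt target whose call was lost with library sizes alone (edgeR adjusted p = 0.110), had 21.1 and 20.8 CPM without DOX and 32.2 and 34.9 with DOX (log2 fold change 0.68 ± 0.10 (SE), edgeR adjusted p = 6.19e-05). In the TGF-beta, Nodal and BMP list 9 of 22 fell and 1 rose (median -0.21). Skil, a SMAD inhibitor induced by the pathway, had 96.0 and 110.1 CPM without DOX and 53.2 and 62.3 with DOX (log2 fold change -0.83 ± 0.08 (SE), edgeR adjusted p = 8.85e-07), and Smad7 had 105 and 101 CPM without DOX and 64.3 and 69.8 with DOX (log2 fold change -0.62 ± 0.08 (SE), edgeR adjusted p = 1.01e-05). Of 11 tested retinoic acid genes 2 rose (18.2%, against 12.7% of all tested genes) and 1 fell, with 1 rise without uninduced replicate 2 or DOX replicate 1 and 2 falls without uninduced replicate 1. Rxra, the shared partner of nuclear receptors, had 12.6 and 15.9 CPM without DOX and 98.8 and 109 with DOX (log2 fold change 2.88 ± 0.11 (SE), edgeR adjusted p = 2.47e-12), and Rara had 86.8 and 81.4 CPM without DOX and 52.5 and 48.6 with DOX (log2 fold change -0.74 ± 0.09 (SE), edgeR adjusted p = 9.83e-06).

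**Figure D4:**
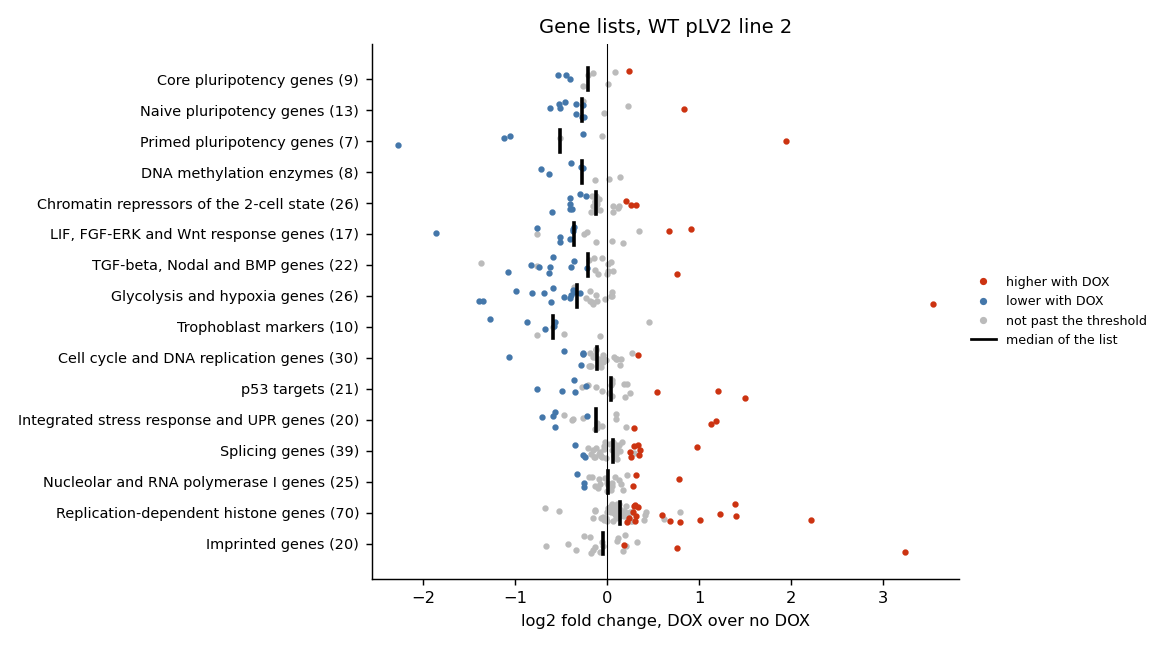
Log2 fold change with DOX in line 2 (horizontal) of every tested member of 16 gene lists (rows, number tested in brackets), red where higher, blue where lower and grey where not called, with a bar at the list median. The glycolysis and hypoxia list has a median of -0.33 with P4ha2 at 3.55 far to the right, and the histone list has a median of 0.14.

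Stress and growth lists were mixed. Over all tested genes 12.7% rose and 13.8% fell, which are the shares to read the counts of these lists against. Of 21 tested p53 targets 3 rose (14.3%) and 5 fell (23.8%), against 5 and 2 with RLE factors and 6 and 1 without uninduced replicate 2. Plk2, a polo-like kinase, had 10.3 and 12.8 CPM without DOX and 36.3 and 28.6 with DOX (log2 fold change 1.499 ± 0.13 (SE), edgeR adjusted p = 8.37e-08), Btg2, an antiproliferative gene, had 20.1 and 20.96 CPM without DOX and 57.7 and 37.0 with DOX (log2 fold change 1.21 ± 0.16 (SE), edgeR adjusted p = 1.90e-05), and Bbc3, which encodes the death effector PUMA, had 9.94 and 12.6 CPM without DOX and 6.11 and 7.08 with DOX (log2 fold change -0.76 ± 0.15 (SE), edgeR adjusted p = 9.43e-04). Of 20 gene IDs (19 symbols) of the integrated stress and unfolded protein responses 3 rose (15.0%) and 5 fell (25.0%), with 1 fall without uninduced replicate 1, 2 without DOX replicate 2 and 2 with DESeq2 or with only the 4 libraries in the fit. Ppp1r15a, which encodes GADD34, had 17.4 and 16.5 CPM without DOX and 40.0 and 34.4 with DOX (log2 fold change 1.13 ± 0.10 (SE), edgeR adjusted p = 1.23e-07), and Xbp1, the splicing-activated transcription factor, had 52.7 and 52.0 CPM without DOX and 34.4 and 35.1 with DOX (log2 fold change -0.59 ± 0.08 (SE), edgeR adjusted p = 5.62e-05). Of 30 cell cycle and replication genes 1 rose and 5 fell (16.7%, against 13.8% of all tested genes, median -0.11), with 2 falls with only the 4 libraries in the fit. Ccnd2, which encodes cyclin D2, had 22.2 and 21.5 CPM without DOX and 9.47 and 11.4 with DOX (log2 fold change -1.07 ± 0.15 (SE), edgeR adjusted p = 4.24e-05), and Plk1, the mitotic kinase, had 164 and 166 CPM without DOX and 118 and 119.8 with DOX (log2 fold change -0.47 ± 0.06 (SE), edgeR adjusted p = 2.93e-05).

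Replication-dependent histone genes rose in 16 of 70 cases (22.9%, against 12.7% of all tested genes, median 0.14), against 5 rises and 1 fall under library sizes alone and 7 rises without DOX replicate 1. Hist1h2ba, the testis H2B variant, had 6.45 and 5.95 CPM without DOX and 16.9 and 15.9 with DOX (log2 fold change 1.40 ± 0.20 (SE), edgeR adjusted p = 5.83e-05), and Hist2h3c1 had 8.72 and 7.78 CPM without DOX and 19.5 and 19.5 with DOX (log2 fold change 1.23 ± 0.13 (SE), edgeR adjusted p = 1.99e-06). Of 39 splicing genes 7 rose (17.9%) and 3 fell (7.7%), against 6 and 7 with repeats counted in the library size and 4 and 1 without DOX replicate 1. Srsf5, a serine- and arginine-rich splicing factor, had 164 and 157 CPM without DOX and 319.8 and 314 with DOX (log2 fold change 0.98 ± 0.07 (SE), edgeR adjusted p = 2.04e-08). Of 25 nucleolar genes 3 rose and 3 fell (12% each, near the shares of all tested genes, and 1 and 2 without DOX replicate 1), with Taf1d, an RNA polymerase I factor, at 235 and 233 CPM without DOX and 416 and 391 with DOX (log2 fold change 0.79 ± 0.08 (SE), edgeR adjusted p = 4.80e-07). Cholesterol synthesis genes rose in 3 and fell in 3 of 22 cases (13.6% each, against 12.7% and 13.8% of all tested genes), with 4 rises and no fall without uninduced replicate 2, and 1 of each without DOX replicate 1. Of 16 tested interferon and nucleic acid sensing genes 2 fell (12.5%, against 13.8% of all tested genes), Irf1 with -0.55 and Ddx58 with -0.55, and Irf1 did not pass without uninduced replicate 2 (edgeR adjusted p = 0.0517). Among 20 imprinted genes 3 rose (15.0%, near the 12.7% of all tested genes) and none fell, while 4 rose and 2 fell without uninduced replicate 2, and 2 rose and 1 fell without either DOX replicate. The list holds Magel2 at 1.99 and 1.65 CPM without DOX and 17.9 and 16.9 with DOX (log2 fold change 3.24 ± 0.19 (SE), edgeR adjusted p = 8.52e-10). Germline genes rose in 2 of 11 tested cases, namely Sycp1 (0.74) and Slc25a31 (1.80, with 8 and 5 counts without DOX and 10 and 23 with DOX). Without uninduced replicate 2 neither passed (edgeR adjusted p = 0.132 and 0.0539), and the same held without DOX replicate 2 (edgeR adjusted p = 0.104 and 0.205), while Sycp1 also did not without DOX replicate 1 (edgeR adjusted p = 0.0992).

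Few markers of other cells rose, where 12.7% of all tested genes rose and 13.8% fell. Of 10 tested trophoblast markers 5 fell (median -0.59), against 3 without uninduced replicate 1, and Cdx2, which defines the lineage, had 0 counts in all 4 libraries. Elf3, given above, and Ascl2, with 78 and 45 counts without DOX and 20 and 16 with DOX (log2 fold change -1.27 ± 0.32 (SE), edgeR adjusted p = 0.00726), were among the 5, though Ascl2 did not pass without uninduced replicate 1 (edgeR adjusted p = 0.0876) or DOX replicate 2 (edgeR adjusted p = 0.0640). Of 10 tested endoderm markers 1 fell, Gata4, with 37 and 17 counts without DOX and 10 and 1 with DOX (edgeR adjusted p = 0.02004), and it did not pass without uninduced replicate 1 (edgeR adjusted p = 0.188), without DOX replicate 2 (edgeR adjusted p = 0.196) or with only the 4 libraries in the fit (edgeR adjusted p = 0.138). Of 5 tested mesoderm and ectoderm markers 0 passed in the main edgeR fit or with DESeq2, and 1 reached an unadjusted p under 0.05 in the main fit. Fibroblast markers were checked because feeder cells were possible. Of 11 tested 2 rose and 1 fell (18.2% and 9.1%, near those shares, and none rose without DOX replicate 1 or with DESeq2), the summed level was 463 and 455 CPM without DOX and 427 and 416 CPM with DOX, and most of it came from Sparc and Vim, which stem cells also express. Of the 19 listed markers, Lum, Dcn, Postn, Acta2, Prrx1 and Twist2 had 0 counts in both uninduced libraries and at most 2 in a DOX library. These low ones do not speak for the other listed markers, and the presence of feeder cells was not tested.

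Line 2 was then set beside WT pLV2 line 1, the same design in the line numbered 1, with no shared libraries. There 1801 genes rose (9.96%) and 1106 fell (6.12%), counts that dropped to between 1547 and 1898 calls in all when any 1 library of line 1 was left out. Of the genes that rose in line 2, 1496 also rose in line 1, which is 65.4% of the line 2 list and 83.1% of the line 1 list. Of the genes that fell, 823 were shared (32.9% and 74.4%). The difference between the lines itself, tested as an interaction, passed for 44 of 18079 genes (0.243%), 34 with the higher log2 fold change in line 2 (0.188%) and 10 with the lower one (0.0553%). Leaving out 1 of the 8 libraries gave 9 to 75 genes, with the lowest without uninduced replicate 1 of line 1.

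Dcbld1, a receptor-like membrane protein gene, had 19.1 and 17.2 CPM without DOX and 93.6 and 93.1 with DOX in line 2 and 32.5 and 28.4 CPM without DOX and 69.7 and 76.3 with DOX in line 1. The line 2 change was larger by 1.09 ± 0.14 (SE) (edgeR adjusted p = 0.00334). Zscan4c had 1.51 and 1.22 CPM without DOX and 344 and 413 with DOX in line 1, and the line 2 change was the larger (difference 4.31 ± 0.72 (SE), edgeR adjusted p = 0.0170). Abhd6, a lipid hydrolase gene, had 4.99 and 5.45 CPM without DOX and 27.7 and 28.2 with DOX in line 2 and 10.3 and 10.2 CPM without DOX and 14.5 and 18.6 with DOX in line 1 (difference 1.73 ± 0.22 (SE), edgeR adjusted p = 0.00399). The difference was negative in Hmgn3, a nucleosome-binding protein gene with the smaller log2 fold change in line 2, which had 6.06 and 6.19 CPM without DOX and 9.01 and 11.5 with DOX in line 2 and 0.892 and 1.35 CPM without DOX and 7.69 and 8.32 with DOX in line 1 (difference -2.07 ± 0.35 (SE), edgeR adjusted p = 0.0194). The line 2 change of Hmgn3 did not pass without uninduced replicate 1 (edgeR adjusted p = 0.0515), without DOX replicate 2 (edgeR adjusted p = 0.122) or with library sizes alone (edgeR adjusted p = 0.113). The difference was also negative in Pfkfb3, a regulator of glycolysis with the deeper drop in line 2, which had 20.8 and 19.9 CPM without DOX and 9.85 and 9.47 with DOX in line 2 and 17.4 and 19.2 CPM without DOX and 14.9 and 16.7 with DOX in line 1 (difference -0.86 ± 0.16 (SE), edgeR adjusted p = 0.0257). The difference in Dux itself did not pass (edgeR adjusted p = 0.790), and its size is left out because both uninduced libraries of line 2 held 0 counts. The Dux counts with DOX were 58 and 53 in line 2 and 95 and 110 in line 1.

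The lines also differed in repeats. In line 1, 591 subfamilies rose (61.2%) and 3 fell (0.311%). The interaction passed for 200 of 965 subfamilies (20.7%), all with the higher log2 fold change in line 2. A lower one in line 2 passed in 0 subfamilies with edgeR and in 0 with DESeq2, and in 9 at an unadjusted edgeR p under 0.05, while 4 passed without uninduced replicate 1 of line 2 and 2 without a filter on low counts. With library sizes alone it passed for 47, and leaving out 1 library gave 108 to 224, the lowest without DOX replicate 1 of line 2. MERVL-int had 137 and 132 CPM without DOX and 16217 and 19775 with DOX in line 1, and its change in line 2 was larger by 1.98 ± 0.22 (SE) (edgeR adjusted p = 6.96e-05). The same held for MT2_Mm (difference 1.66 ± 0.23 (SE), edgeR adjusted p = 3.31e-04), B2_Mm1a (1.41 ± 0.23 (SE), edgeR adjusted p = 7.34e-04), IAPEz-int (0.88 ± 0.17 (SE), edgeR adjusted p = 0.00242) and GSAT_MM (1.51 ± 0.36 (SE), edgeR adjusted p = 0.00732). L1Md_T did not pass (0.97 ± 0.56 (SE), edgeR adjusted p = 0.256). Of the 271 ERVK subfamilies 85 passed.

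The plain WT line of the study, which carries TRE_DUX without the pLV2 label, was fitted in a separate set. There 538 genes changed (2.98%), of which 517 rose (2.86%) and 21 fell (0.116%), a call count that fell to 2 without uninduced replicate 2 of that line. Of the 517, 514 also rose in line 2 (99.4%, or 22.5% of the line 2 list). Of 981 repeat subfamilies tested there 88 were called (8.97%), each of them a rise. Tie1 rose in all 3 lines, with log2 fold changes of 10.26 in line 2, 7.29 in line 1 and 7.34 in plain WT.

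**Figure D5:**
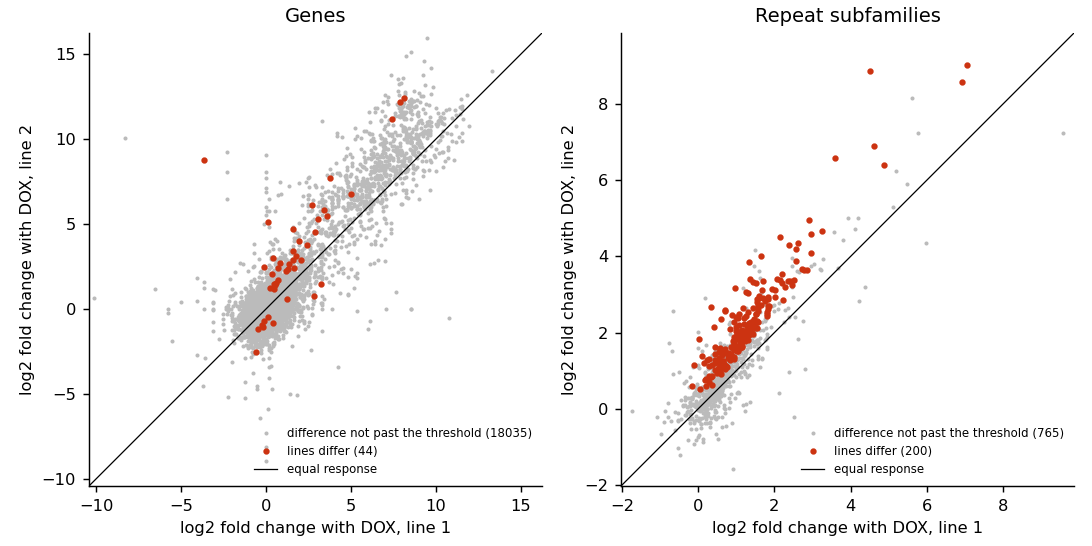
Log2 fold change with DOX in line 2 (vertical) against line 1 (horizontal) for genes (left) and repeat subfamilies (right), with a red point where the difference passed, grey where not, and a diagonal where both are equal. MERVL-int lies at 9.04 in line 2 and 7.06 in line 1, and all 200 coloured repeat subfamilies lie above the diagonal.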

How the data were processed

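RNA of 24 libraries, prepared with rRNA depletion and a directional kit per the labels' protocols, was deposited as read counts for 55487 gene IDs and 1146 repeat subfamilies. Per the submitters' processing notes, bcl2fastq 2.20.0, cutadapt 1.18, STAR 2.7.6a and the mm10 build were used. The counting tool and its strand setting are not given in the sources used here, so antisense and overlapping genes are uncertain. GENCODE M21 gave names for all but 260 gene IDs (792 matched without their version).

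The raw deposited counts were tested with edgeR 4.0.16 (R 4.3.3) by quasi-likelihood on the 16 pLV2 libraries in 8 groups, 4 of them of TRIM24KO or TRIM33KO lines (8 residual degrees of freedom, coefficient of variation 8.73%), with TMM factors from genes, filterByExpr, 2-sided tests and Benjamini-Hochberg adjustment apart for 18079 genes and 965 subfamilies (threshold 0.05). The plain WT line was fitted with the DUXBL_KO line. SE is the log2 fold change divided by the root of F. Where both uninduced libraries held 0 counts, the fold is against 3 counts per library (0.165 CPM without and 0.226 CPM with DOX). Intervals and floors cover counting error only. On data simulated for the line 2 comparison with 17327 genes, 89.5% of 200 changed genes were recovered and 5.29% of calls were false. The simulation gave every gene the same spread and changed as many genes down as up, by a log2 of at least 1. In the data 4788 genes were called and most falls were below a log2 of 1, so these rates do not carry over to them.

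The members and lists were chosen with earlier results of these data known. Named genes were a preset group, by smallest p-value the first 8 genes in each direction, by change in CPM the first 5 among genes with a mean of at least 50 counts, the examples of each list and those of the line difference. Alternatives were RLE factors, library sizes alone or with repeats, other low-count filters, a replicate block, only the compared groups, DESeq2 1.42.0, a log2 change of at least 1 and leaving out each replicate. The motif GATTNAATC, and a fit without the 2 libraries (replicate 2 of TRIM24KO_pLV2_1 and of TRIM33KO_pLV2_1 with DOX) in which CT010467.1 took over 10% of gene counts, were added after the data were seen.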

Additional observations from a re-analysis of the deposited data

Results flagged for a closer look

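The response to DOX differed between line 2 and line 1, by the interaction term of the edgeR fit, for 44 genes and 200 repeat subfamilies. All values here are differences of the log2 fold change, line 2 minus line 1, that passed this test at an adjusted p under 0.05. Among the named genes of the 2-cell embryo, Zscan4c differed by 4.31, Zscan4d by 4.31 and Usp17le by 3.75. These 3 genes had few uninduced counts in line 2, so the size of the difference is uncertain.

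Among genes with a larger change in line 2 that were transcribed without DOX, Abhd6 differed by 1.73, Dcbld1 by 1.09, the stress-induced kinase gene Plk2 by 0.89 and the nuclear receptor gene Rxra by 0.85. The difference was negative in Hmgn3 (-2.07), Pfkfb3 (-0.86), Plekha2 (-0.70), Kdm7a (-0.70) and Socs3 (-0.62). Hmgn3 had the smaller positive value in line 2, Pfkfb3, Plekha2 and Kdm7a had the more negative value there, and Socs3 fell in line 2 (-0.51) and had a log2 fold change of 0.11 in line 1.

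All named repeat subfamilies that differed had the larger rise in line 2. MLT2E, with 1 uninduced count in line 2, differed by 4.36, RLTR6B_Mm by 2.28, MERVL-int by 1.98, MT2_Mm by 1.66, GSAT_MM by 1.51, B2_Mm1a by 1.41, MERVL_2A-int by 1.13, MT2B1 by 0.93, IAPEz-int by 0.88, ORR1A1-int by 0.78 and B1_Mm by 0.68. The lines were each 4 libraries, and a line cannot be told apart from anything else that differed between the pairs.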

How the results depend on the processing

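Genes changed in line 2 numbered 4788, against 1716 with a log2 change of at least 1, 2579 with library sizes alone and 2740 with only the compared groups in the fit, and leaving out 1 library gave 2893 to 3975. The other settings without a block gave 3458 (DESeq2) to 5374 (repeats in the library size). For repeat subfamilies the count was 695, against 453 at a log2 change of at least 1, and 637 to 676 with 1 library left out. The interaction count for genes (44) was 81 with library sizes alone, 240 without a filter, 104 with DESeq2, 68 without the 2 CT010467.1-rich libraries and 9 to 75 with 1 library left out. For repeats (200) it was 71 at a log2 difference of at least 1, 47 with library sizes alone and 108 to 224 with 1 library left out. Line 1 gave 2907 genes, 1261 at a log2 change of at least 1 and 1547 to 1898 with 1 library left out, and plain WT gave 538 and 2 to 641. A group left with 1 library was assumed to vary like the others. The causes were not tested.

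With the replicate block, 6169 genes (2740 up, 3429 down) were called in line 2, 237 in the interaction and 2209 in plain WT. Between the arms of line 2 the replicate difference correlated over 12075 genes (r = 0.42), with 2 pairs, and the labels tie the numbers to nothing shared, so the samples share only a number. The block kept 2282 of 2289 rises and 2489 of 2499 falls.

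Of 1582 values of named genes and subfamilies under an alternative, 1490 kept their direction and side of the threshold and 17 changed sign, each in a gene that had not passed. With library sizes alone Trim24 was -0.0996, Pkm -0.0894, Gapdh -0.0879 and Dppa4 -0.12. With repeats in the library size Trim24 was -0.0048 and Dppa4 -0.0267, with only the compared groups Sparc was 0.0077, and with the block mt-Co2 was -2.44. With 1 library left out, Sparc ranged from -0.17 to 0.0213, Trim24 from -0.0561 to 0.20, Pkm from -0.0134 to 0.16, Zfp42 from -0.46 to 0.0555, Dppa4 from -0.0152 to 0.13 and mt-Co2 from -16.18 (without DOX replicate 1, edgeR adjusted p = 0.0186) to 1.21. The depth of 12703385 to 17763800 gene counts per library leaves folds of genes with few counts uncertain.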

Other observations

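Several biotypes rose in a larger share than the 12.7% of all tested genes in line 2, by edgeR at an adjusted p under 0.05, and others did not. Unprocessed pseudogenes, which are duplicated gene copies, rose in 113 of 172 tested cases (65.7%), processed pseudogenes in 242 of 764 (31.7%) and lincRNAs in 180 of 613 (29.4%), while processed transcripts rose in 27 of 281 (9.61%), TEC genes in 79 of 727 (10.9%), snoRNAs in 27 of 237 (11.4%) and protein-coding genes in 1393 of 14244 (9.78%). Of falls, 2375 were in protein-coding genes (16.7% of those tested) and 3 each in processed and unprocessed pseudogenes. A pseudogene can take reads from its parent, and a gene with few uninduced counts passes the filter mainly through the libraries where it is high, so these shares describe the tested genes only. Of snRNA genes, copies of the spliceosomal RNAs, 20 of 53 rose (37.7%).

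Some of the genes that rose by a log2 fold change of at least 1 lay in clusters of copied genes, though such genes were found on every chromosome. Over all tested genes 8.19% rose that far, and on chromosome 12 15.2% did. In windows of 1 Mb on GRCm38, the most were on chromosome 12, with 28 of 42 tested genes between positions 87000001 and 88000000 and 20 of 21 in the next window, which holds Eif1a-like copies such as Gm5662. On chromosome 7 the window from 15000001 to 16000000 held 18 of 24, all with Obox symbols, and that from 11000001 to 12000000 held 11 of 11, among them Zscan4c, Zscan4d and Zscan4-ps2. The Pramef cluster on chromosome 4 (143000001 to 144000000) held 16 of 21, the Tdpoz cluster on chromosome 3 (93000001 to 94000000) 16 of 21, and a window around Sp110 on chromosome 1 (85000001 to 86000000) 16 of 18. Copies in a cluster share reads and are not independent.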
